A study of Mus musculus with 24 samples.

Results

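The transcripts described here are those of 9 genes that encode alternative forms of 4 nuclear subunits of cytochrome c oxidase, the respiratory chain's complex IV: Cox4i1 and Cox4i2, Cox6a1 and Cox6a2, Cox7a1, Cox7a2 and Cox7a2l, and Cox8a and Cox8b. They were chosen by symbol, and all 9 were found among the 47643 Ensembl gene IDs of the count table. The set was proposed with earlier results of the same smoke against air comparison known, among them the lower Cox7a1 level under smoke. Smoke against air values of the 9 genes are therefore given as a description with no p-value. Where a member was among the genes called in the fit of the whole table, that is stated as part of the description and is not read as a test of the member.

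The study measured RNA of the plantaris, a fast hindlimb muscle, in wild type C57BL/6 mice by sequencing from the 3′ end of transcripts. The control group breathed normal air (11 samples) and the exposed group was given tobacco smoke over 16 weeks (13 samples); strain, genotype and tissue were the same in both, and the labels give no age. The labels do not say whether each sample came from its own mouse, so the p-values below measure the spread between these samples. The series title places the work in a question about chronic activity of the aryl hydrocarbon receptor in muscle.

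Complex IV passes electrons from cytochrome c to oxygen. Its catalytic core is made of subunits encoded in mitochondrial DNA, and a ring of small nuclear-encoded subunits surrounds this core and tunes the enzyme. At some positions of that ring mammals have paralogous genes, a heart and muscle form (Cox6a2, Cox7a1, Cox8b) and a form made in most tissues (Cox6a1, Cox7a2, Cox8a). Striated muscle switches from the ubiquitous to the muscle forms as it matures, and Cox7a1 and Cox8b are also known from brown fat. Cox4i2 is known as a lung form with a response to oxygen, and Cox7a2l, a paralogue of the Cox7a genes, is known for its part in joining complexes III and IV into supercomplexes.

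The bases before the start of transcription are shown for the 5 paired genes that had an entry in the RefSeq promoter table (build GRCm38.p6), so that muscle and ubiquitous forms can be read side by side. Of the 9 genes, 6 had an entry; Cox4i1, Cox4i2 and Cox6a2 had none. Each sequence runs 5′ to 3′ on the gene's own strand over the 250 bases before the start, and capitals mark every match to the motifs named after the sequences. Cox7a1 lies at chr7:30183921-30184170 (plus strand), Cox7a2 at chr9:79759854-79760103 (minus strand), Cox8b at chr7:140900447-140900696 (minus strand), Cox8a at chr19:7217617-7217866 (minus strand) and Cox6a1 at chr5:115348959-115349208 (minus strand). GENCODE M21 places the starts of Cox6a1, Cox7a1 and Cox7a2 slightly upstream, within the printed bases, and that of the Cox7a2l gene well upstream of the RefSeq window searched here. Each muscle form is followed by its ubiquitous partner, and Cox6a1 stands alone.
Cox7a1: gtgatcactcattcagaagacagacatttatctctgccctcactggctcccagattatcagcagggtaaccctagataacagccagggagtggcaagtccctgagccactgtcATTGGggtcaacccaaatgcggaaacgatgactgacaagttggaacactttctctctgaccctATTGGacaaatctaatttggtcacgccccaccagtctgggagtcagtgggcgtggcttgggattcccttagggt
Cox7a2: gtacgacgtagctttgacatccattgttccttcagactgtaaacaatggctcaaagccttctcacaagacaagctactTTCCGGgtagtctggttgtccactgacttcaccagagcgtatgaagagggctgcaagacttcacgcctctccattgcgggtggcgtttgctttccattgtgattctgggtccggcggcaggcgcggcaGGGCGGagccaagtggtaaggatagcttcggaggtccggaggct
Cox8b: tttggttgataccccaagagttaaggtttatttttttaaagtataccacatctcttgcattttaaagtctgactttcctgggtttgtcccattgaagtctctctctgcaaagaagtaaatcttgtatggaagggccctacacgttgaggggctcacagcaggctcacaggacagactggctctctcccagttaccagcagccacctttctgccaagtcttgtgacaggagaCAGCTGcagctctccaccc
Cox8a: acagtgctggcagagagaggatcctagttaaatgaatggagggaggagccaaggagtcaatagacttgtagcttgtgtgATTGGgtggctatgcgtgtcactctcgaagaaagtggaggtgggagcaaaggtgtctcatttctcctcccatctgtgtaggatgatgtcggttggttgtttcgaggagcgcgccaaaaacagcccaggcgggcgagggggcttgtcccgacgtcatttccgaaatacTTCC
Cox6a1: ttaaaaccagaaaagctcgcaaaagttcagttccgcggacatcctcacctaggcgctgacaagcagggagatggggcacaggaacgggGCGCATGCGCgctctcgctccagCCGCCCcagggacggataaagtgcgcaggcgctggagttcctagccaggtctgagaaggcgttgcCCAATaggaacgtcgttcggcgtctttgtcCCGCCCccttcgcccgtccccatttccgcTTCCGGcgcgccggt

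CpG dinucleotides numbered 4 in the promoter of Cox7a1 and 1 in that of Cox8b, against 14 for Cox7a2, 11 for Cox8a and 26 for Cox6a1. Over all 32851 promoters of the table the median was 6, and 37.8% of them had fewer than Cox7a1, 7.87% fewer than Cox8b, 64.4% fewer than Cox8a, 70.6% fewer than Cox7a2 and 90.4% fewer than Cox6a1. Cox7a2l, at chr17:83514334-83514583 on the minus strand, had 13, and 68.5% had fewer. The search for 8 motifs covered both strands of the whole 300 base window, which adds 50 bases after the start that are not printed.

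Motifs bound by factors known for respiratory chain genes were found in the ubiquitous promoters. Cox6a1 held the full NRF1 motif (its letters are the first capitals of the Cox6a1 line; in 0.971% of promoters) at -162 to -153, counted back from the first transcribed base, which is +1. The GABP and ETS motif (CCGGAA, in 14.9% of promoters) matched once in Cox6a1 and in Cox7a2, and in Cox8a at 3 places, of which only the first letters of the most upstream are printed because it spans the start (-4 to 2). The GC box (GGGCGG, in 35.7%) matched in Cox6a1, Cox7a2 and Cox7a2l. Neither muscle promoter held any of these 3 motifs.

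Cox8b held the E-box of the MyoD family (CAGCTG, in 16.3% of promoters) at -19 to -14 and again at 17 to 22, and a TATA box (TATAAA, in 13.6%) at 5 to 10, after the annotated start. Cox7a1 held only the CCAAT box (CCAAT, in 37.4%), at -137 to -133 and at -74 to -70; this motif also matched in Cox6a1 and Cox8a. The MEF2 motif (in 3.69% of promoters) and the motif of oestrogen-related receptors (TCAAGGTCA, in 0.423%) matched in none of the 6 windows. A match describes letters and does not show that a factor binds there, and a window without a match says nothing about the factor.

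The muscle forms were the most abundant of the set. Levels are CPM, counts brought to a common library size, on libraries scaled by the trimmed mean of M values (TMM); since a 3′ library gives about the same number of reads per transcript whatever its length, levels of different genes were compared without a length term. In air, Cox6a2 came first at 2966 ± 236.9 CPM (SD, n = 11), and over all 24 samples it ranked 29th of the 10159 genes tested. Cox7a1 followed at 1803 ± 124 CPM and Cox8b at 904 ± 71.1 CPM. Cox4i1, the ordinary form of the regulatory subunit that binds ATP, stood at 816 ± 70.0 CPM.

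The ubiquitous forms lay below. Cox7a2 was at 367 ± 25.9 CPM in air (SD, n = 11), Cox8a at 86.7 ± 8.46 CPM, Cox7a2l at 53.9 ± 5.23 CPM and Cox6a1 at 34.8 ± 4.91 CPM. This order held in each of the 11 air samples for every pair of neighbours. The ranges over samples overlapped only between Cox8b and Cox4i1, whose air means differed 1.11-fold; the other neighbours differed 1.55-fold to 4.23-fold with ranges apart.

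**Figure D1:**
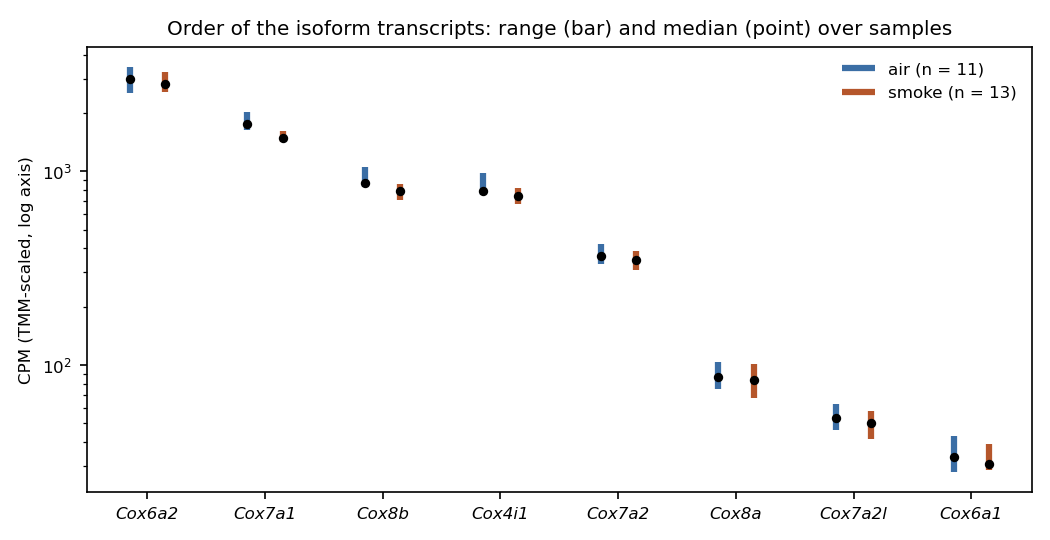
Level of each isoform transcript in CPM on a log axis, genes ordered by their air mean; bars span the lowest to the highest sample and points mark the median, for 11 air (blue) and 13 smoke (orange) samples. Cox6a2, Cox7a1 and Cox8b stand above their ubiquitous partners in both groups, and only the Cox8b and Cox4i1 ranges overlap as neighbours in air.

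Cox4i2 was at the edge of detection and did not pass the expression filter. It had 0 to 5 counts per air sample (21 in all, a count in 8 of 11 samples) and 0 to 6 per smoke sample (29 in all, a count in 10 of 13). In a library 3 counts amount to between 0.662 and 1.19 CPM, and the group medians of 0.55 CPM in air and 0.37 CPM in smoke lie below it, so that no difference in Cox4i2 was detectable at this depth. Pericyte and smooth muscle transcripts were present in the same libraries (7 of 9 listed genes passed the filter, summed level 608 to 868 CPM in air and 678 to 936 CPM in smoke).

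Summed over paralogues, the 4 subunits were not equal at the transcript level, although they are present in equal amounts in the enzyme. In air the Cox6a pair summed to 3001 CPM (range 2579 to 3479, n = 11), the Cox7a pair to 2169 ± 127 CPM (SD), the Cox8 pair to 991 ± 73.1 CPM and the Cox4 pair to 816 ± 69.9 CPM. Under smoke the sums were 2896 ± 191, 1854 ± 70.6, 877 ± 49.0 and 738 ± 46.3 CPM in the same order (SD, n = 13). The percent change of the mean was −3.5 for Cox6a, −14.5 for Cox7a, −11.5 for Cox8 and −9.59 for Cox4. Only the Cox7a sums did not overlap, at 1968 to 2369 CPM in air and 1761 to 1964 CPM in smoke. That separation depends on the TMM scaling.

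Cox7a1, the muscle form of a small membrane subunit, had the widest gap between groups. Air samples lay at 1637, 1763 and 2016 CPM (lowest, median, highest) and smoke samples at 1420, 1485 and 1608 CPM. On these TMM-scaled libraries all 13 smoke samples were below the lowest air sample. Without the scaling factors the groups overlapped. Air replicate 11, with the lowest factor (0.857), had 5733 Cox7a1 counts in a total of 3729395. Smoke replicate 12 had 4971 in 3046672, a larger share. The log2 fold change, smoke against air, was −0.26 (SE 0.043, edgeR), a change of −16.3%. In bulk tissue, fewer cells of a type and less RNA per cell cannot be told apart. Groups with no overlap were rare in the table, at 0.0295% of the tested genes (3 genes in all), or 0.0197% counting only genes lower under smoke; since Cox7a1 helped to choose the set, nothing is read from that share.

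Cox8b, the muscle form of another small membrane-spanning subunit, came next. Its air samples lay at 833, 865 and 1056 CPM and its smoke samples at 714, 791 and 861 CPM. The groups overlapped narrowly: 9 of 13 smoke samples were below every air sample and 13 of 13 were below the air mean. Its log2 fold change was −0.19 (SE 0.047), a change of −12.3%.

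Cox6a2, the muscle form of a subunit with a role in regulation by adenine nucleotides, did not share that gap. Its air samples lay at 2537, 2976 and 3442 CPM and its smoke samples at 2577, 2835 and 3264 CPM. The smoke range lay inside the air range, and 10 of 13 smoke samples were under the mean of air. The log2 fold change was −0.051 (SE 0.048). Over the 3 muscle forms the change ran from −16.3% for Cox7a1 to −3.46% for Cox6a2.

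Of the ubiquitous forms, Cox7a2 lay at 332, 366 and 421 CPM in air and at 309, 346 and 386 CPM in smoke. The ranges overlapped, and the log2 fold change was −0.087 (SE 0.047). Cox8a lay at 75.3, 87.0 and 103 CPM in air and at 67.2, 83.7 and 101 CPM in smoke. Only 7 of 13 smoke samples of Cox8a were below the air mean, and the log2 fold change was −0.040 (SE 0.066). Cox6a1 lay at 27.9, 33.5 and 42.8 CPM in air and at 28.6, 30.6 and 38.9 CPM in smoke, with a log2 fold change of −0.10 (SE 0.077) and a smoke range inside the air range. Its 3′ end matches a processed pseudogene, AC148174.2, over 199 bases at 96.0% identity, and the pseudogene has no row in the count table, so that the Cox6a1 count is uncertain.

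Cox4i1 has no muscle-specific partner, and its log2 fold change was −0.15 (SE 0.048). Its air samples lay at 756, 794 and 980 CPM and its smoke samples at 675, 745 and 816 CPM. The ranges overlapped, with 7 of 13 smoke samples below every air sample. Cox7a2l lay at 46.3, 52.9 and 63.1 CPM in air and at 41.3, 50.2 and 58.0 CPM in smoke, with a log2 fold change of −0.15 (SE 0.067). For Cox7a2l, 6 of 13 smoke samples were below every air sample.

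**Figure D2:**
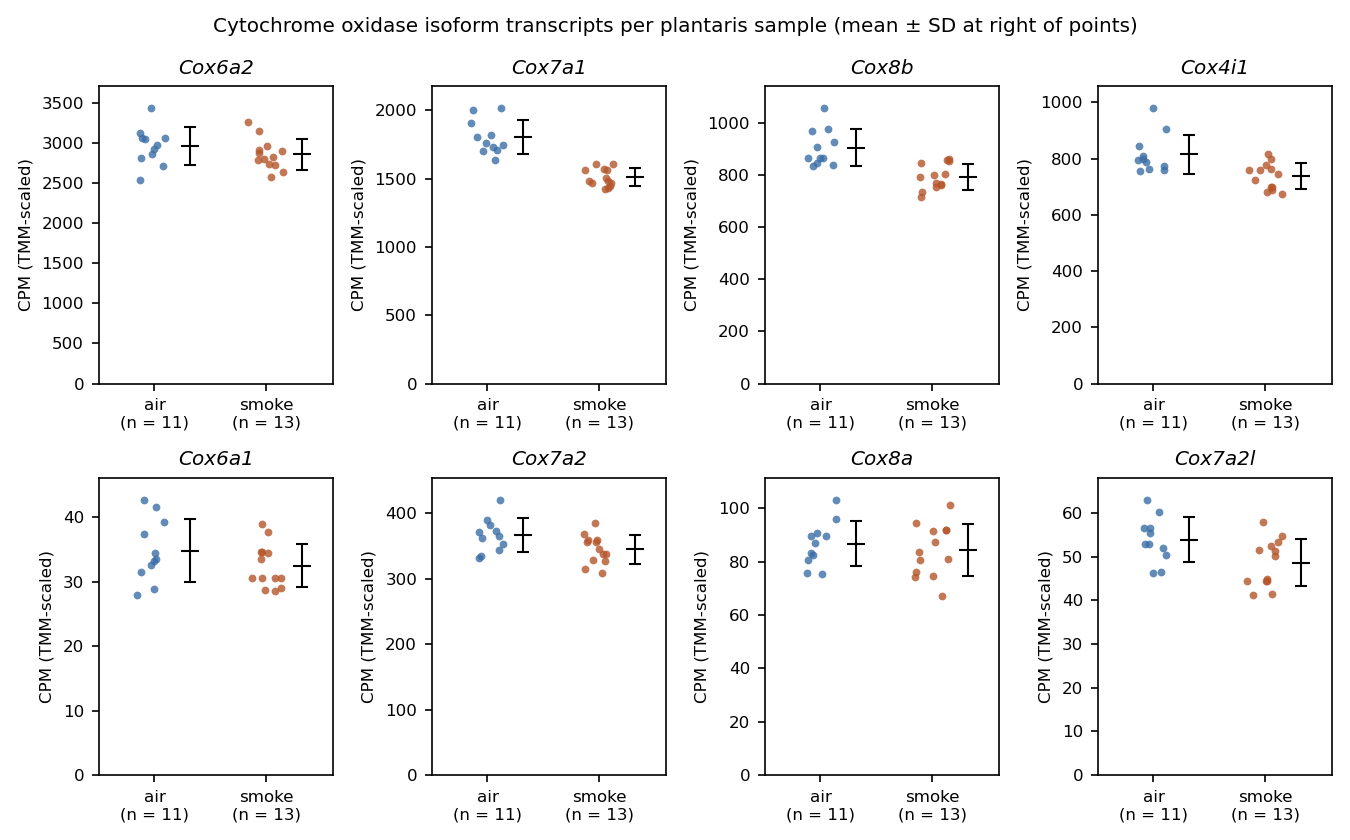
CPM of 8 isoform transcripts in each sample (points), 11 air and 13 smoke, with the mean and SD beside the points; each vertical axis starts at 0. With TMM scaling the groups separate for Cox7a1 (smoke 1420 to 1608 CPM, air 1637 to 2016 CPM). They overlap narrowly for Cox8b and lie within each other for Cox6a2 and Cox6a1.

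Across the whole table, edgeR's quasi-likelihood test called 195 of 10159 genes at a Benjamini-Hochberg adjusted p under 0.05 (1.92%), of which 121 were lower under smoke (1.19%) and 74 higher (0.728%). Of the 9 genes of the set, 8 passed the expression filter, and 2 of these, Cox7a1 and Cox8b, were among the genes called lower and 0 among those called higher. All 8 log2 fold changes were below 0, from −0.26 to −0.040 with a median of −0.12, where 48.4% of all tested genes were below 0 and their median was 0.0066. Because the set was proposed with this contrast known, these counts describe the set and support nothing. Among the fits in which Cox8b was no longer called were those without air replicate 5, without air replicate 8, with no expression filter and with a blood marker score as a covariate (log2 fold change −0.18, −0.18, −0.20 and −0.16).

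Ratios of a muscle form to its partner were formed within each library, where no scaling enters. Cox6a2 exceeded Cox6a1 by 60.9-fold to 109-fold over the air samples, with a median of 91.9-fold, and by 72.2-fold to 104-fold over the smoke samples, with a median of 86.5-fold. On the log2 scale, with 2 counts added to each, the 11 air samples averaged 6.40 ± 0.24 (SD) and the 13 smoke samples 6.44 ± 0.16 (SD), a difference of 0.043 (SE 0.084). Cox6a2 made up 98.8% ± 0.20 of the pair's reads in air and 98.9% ± 0.12 in smoke. Because the Cox6a1 count is uncertain, as stated above, so are the size of this ratio and the share.

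The other muscle forms were less dominant. Cox7a1 exceeded Cox7a2 by a median of 4.94-fold in air (range 4.32 to 5.69) and 4.36-fold in smoke (range 3.85 to 4.86), and the log2 difference, smoke minus air, was −0.17 (SE 0.050), from 2.30 ± 0.14 (SD, n = 11) to 2.13 ± 0.11 (SD, n = 13). All 13 smoke samples were below the air mean ratio and 4 were below every air sample. Its share of the pair's reads was 83.1% ± 1.31 in air and 81.4% ± 1.12 in smoke. Cox8b exceeded Cox8a by a median of 10.8-fold in air (range 8.71 to 12.3) and 9.22-fold in smoke (range 7.04 to 11.8), a log2 difference of −0.15 (SE 0.074), and 10 of 13 smoke samples were under the mean ratio of air. Between the group medians that difference was −0.22. Muscle forms thus remained in large excess in every smoke sample, and the ratios of the Cox7a and Cox8 pairs had lower means under smoke while that of the Cox6a pair did not. The sign of the Cox6a difference was not stable: it was −0.0060 without air replicate 1 and −0.090 between the group medians.

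**Figure D3:**
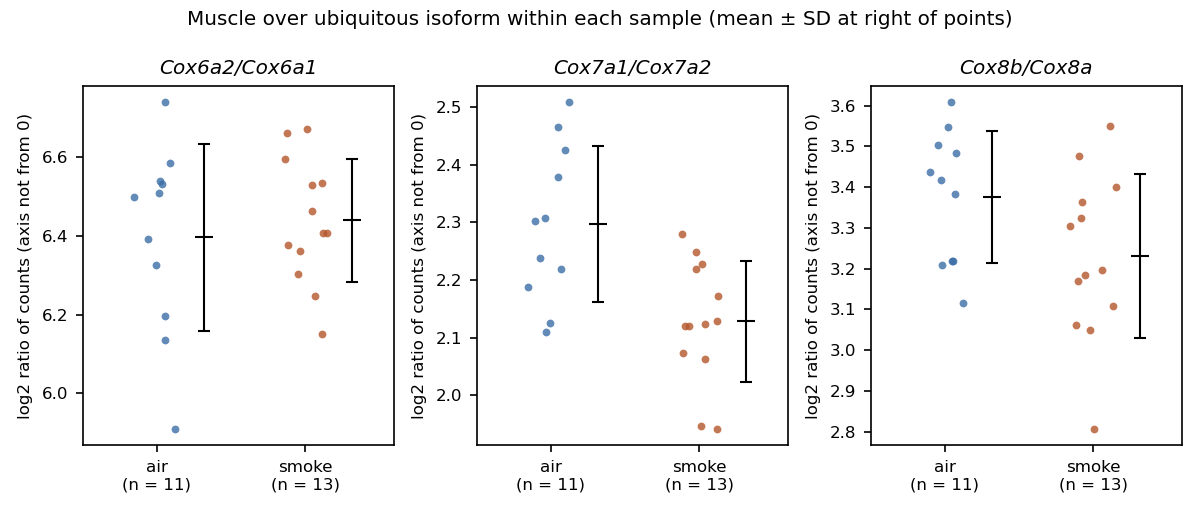
Log2 ratio of the counts of the muscle form to those of its ubiquitous partner in each sample (points), with the mean and SD beside them, for 11 air and 13 smoke samples; the axes do not start at 0. The smoke mean lies below the air mean for Cox7a1/Cox7a2 (difference −0.17) and Cox8b/Cox8a (difference −0.15), and near it for Cox6a2/Cox6a1.

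The rest of the enzyme was read from the same fit. Of 14 further subunit genes in the list, 9 passed the filter, and 1 was called: Cox6b1, a subunit on the face of the enzyme where cytochrome c docks, fell from 1769 ± 182 CPM (SD, n = 11) to 1533 ± 115 CPM (SD, n = 13), which is −0.21 on the log2 scale (SE 0.053; adjusted p = 0.0325 in edgeR). In each of the 13 smoke samples it was under the mean of air. Among the fits that lost this call were those with no expression filter, with the blood covariate and without any of air replicates 2 and 8 and smoke replicates 8 and 9, each of which left 0 of the 9 called. Of the 9 genes, 2 were called without air replicate 6 or without air replicate 11, 2 by limma voom with sample weights and 3 by DESeq2. Over all 10159 genes, voom called 262 and DESeq2 323, against 195 (1.92%) in edgeR.

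Cox5b, a zinc-binding subunit, did not pass at −0.17 on the log2 scale (SE 0.052; adjusted p = 0.078 in edgeR), though all 13 smoke samples were under the mean of air. Ndufa4l2, a paralogue of the subunit Ndufa4, was at 0.14 (SE 0.14, edgeR adjusted p = 0.699). Cox5a, Cox6c, Cox7b and the mitochondrially encoded catalytic subunit mt-Co1 lay between −0.12 and −0.10 (edgeR adjusted p 0.186 to 0.278), and Cox7c and Ndufa4 at 0.099 and 0.080 (edgeR adjusted p 0.813 and 0.735). The list's median was −0.10, with 6 of 9 genes below 0. The mitochondrial genes mt-Co2 and mt-Co3, which encode the other catalytic subunits, are listed at 0 counts in all 24 samples. The core of the enzyme is thus seen here through mt-Co1 alone. Why these genes have no counts was not tested, and the mt-Co1 count may be affected too.

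Assembly factors, which insert haem and copper and put the subunits together, were listed together with factors for the enzyme's mitochondrial mRNAs. This list gave no call. Of 33 symbols, 32 were in the table and 29 were tested. EdgeR called 0 of them, as did DESeq2 and limma voom with sample weights. An unadjusted edgeR p under 0.05 was found for 7 of these 29 genes. Over all tested genes it was found for 1575 of 10159 (15.5%). The log2 fold changes farthest from 0, none past the test, were those of Sco2, a copper chaperone (−0.46, SE 0.18; adjusted p = 0.205 in edgeR), Tmem177 (−0.31, SE 0.18; adjusted p = 0.414) and Cox16 (−0.26, SE 0.21; adjusted p = 0.601). In air these genes were at 5.28, 6.84 and 3.54 CPM. The median was −0.090, with 21 of 29 below 0.

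Other respiratory complexes, listed after the data had been seen, are set beside the isoforms as values. Nuclear-encoded subunits of complex I had a median log2 fold change of −0.12 over 36 tested genes (35 below 0, 4 called, all lower). Nuclear-encoded subunits of complexes II and III and of ATP synthase had a median of −0.13 over 28 (26 below 0, 3 called, all lower). The tested genes of these lists included none encoded in mitochondrial DNA. Of all tested genes 48.4% were below 0 and 1.19% were called lower. The median over the 8 isoform genes was −0.12.

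**Figure D4:**
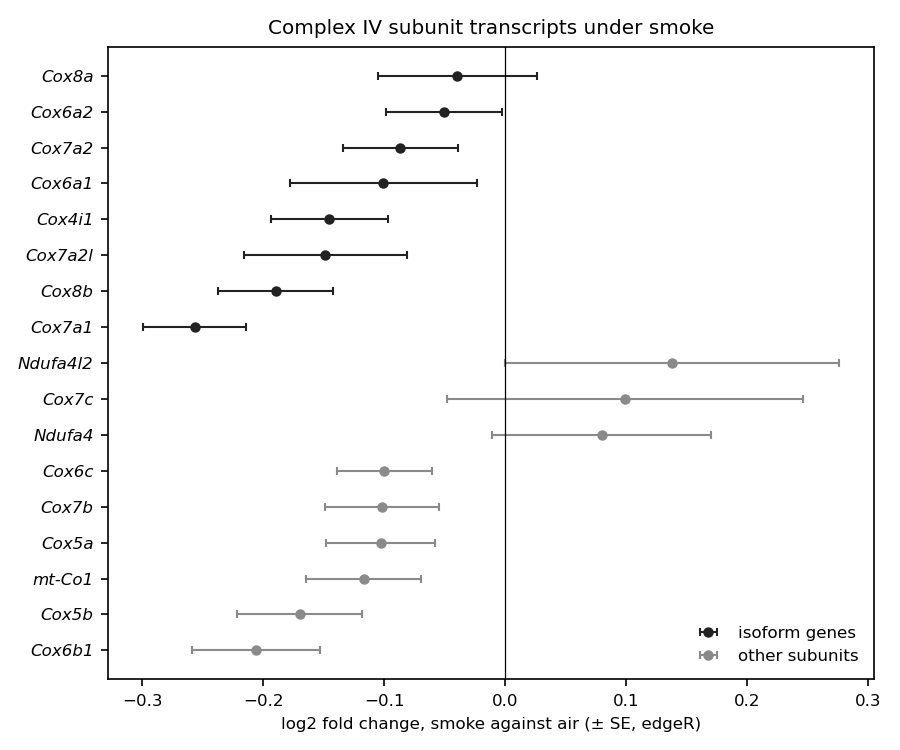
Log2 fold change of smoke against air with its standard error (edgeR, 11 air and 13 smoke samples) for the 8 tested isoform genes (black) and the 9 other tested complex IV subunits (grey). Cox7a1 lies lowest at −0.26, and all 8 isoform genes and 6 of the 9 other subunits lie below 0.

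Totals ran from 2515697 to 4528845 counts per sample, and air replicate 11 had the lowest scaling factor of the 24 libraries, 0.857. The tissue label was checked against fibre markers: the 9 fast fibre genes summed to 97420 to 153200 CPM in air and 105800 to 133000 CPM in smoke, and the 9 slow fibre genes to 593 to 1062 and 574 to 1041 CPM, with 0 of either list called. Of the brown fat genes, Ucp1 and Elovl3 had no more than 1 count in any sample, Cidea had 2 to 19 counts and Dio2 2 to 25. Ppargc1b, with 26 to 83 counts, made up most of the list's level, and the 5 genes summed to 13.5 to 29.2 CPM in air and 18.0 to 24.2 CPM in smoke. Of the 5 blood genes 3 were called lower under smoke (summed level 486 to 1444 CPM in air, 369 to 883 CPM in smoke), and of the 5 Schwann cell genes 3 were called higher (118 to 274 and 176 to 852 CPM). With the blood score as a covariate, an alternative added after the data were seen, Cox7a1 had a log2 fold change of −0.22 (SE 0.051); the part of Schwann cell RNA was not tested.

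Within groups, the muscle forms were compared across samples after each group's mean was removed, which takes the smoke contrast out. Of 12 relations computed, 1 passed the adjusted threshold of 0.05. Cox6a2 and Cox8b varied together, with Pearson's r 0.776 (permutation p = 1e-05, the smallest 100000 resamples can give; Benjamini-Hochberg adjusted p = 0.00012) and Spearman's rho 0.758 (permutation p = 4e-05, adjusted p = 0.00048) over 24 samples. The value of r was 0.815 in air (n = 11) and 0.727 in smoke (n = 13), and 0.699 without air replicates 1 and 11, the samples farthest from the median of Cox6a2. The genes share library, depth and scaling. With RLE scaling in place of TMM r was 0.779, but RLE also applies a shared factor per library to both genes. Air replicate 11, whose scaling factor was the lowest (0.857), had the highest CPM of both genes. The part of scaling and of depth in this correlation was not tested.

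The relations of Cox7a1 with the other muscle forms did not pass. With Cox6a2 it had r 0.26 (permutation p = 0.256, adjusted p = 0.97) and rho 0.485 (permutation p = 0.0211, adjusted p = 0.0846), with r −0.040 in air and 0.743 in smoke, a difference that was not tested. That value rested on air replicates 1 and 11: air replicate 1 had the lowest Cox6a2 level of its group (2537 CPM) and the highest Cox7a1 level (2016 CPM), and without these samples r was 0.654 (adjusted permutation p = 0.00258). With Cox8b, Cox7a1 had r 0.395 (permutation p = 0.0743, adjusted p = 0.446) and rho 0.519 (permutation p = 0.0126, adjusted p = 0.0758), and r 0.549 without air replicates 1 and 8 (adjusted permutation p = 0.0316).

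No correlation was detected between muscle and ubiquitous partners. Pearson's r was 0.045 for Cox6a1 with Cox6a2, 0.078 for Cox7a2 with Cox7a1 and 0.0083 for Cox8a with Cox8b (permutation p = 0.847, 0.733 and 0.97; adjusted p = 0.97 for each; rho 0.025, 0.040 and −0.048, adjusted p = 0.953 for each). The slow fibre score, the mean log2 CPM of the 9 slow fibre genes, had r between −0.17 and 0.12 with the 6 paired isoform genes (permutation p 0.433 to 0.944, adjusted p = 0.97 for each) and rho between −0.261 and 0.127 (adjusted permutation p 0.675 to 0.953). No relation of the isoforms to the slow fibre score was detected over the pooled samples. Within groups, r with Cox8b was −0.465 in air (n = 11) and 0.508 in smoke (n = 13), and r with Cox6a2 was −0.229 and 0.327. The difference between groups was not tested.

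**Figure D5:**
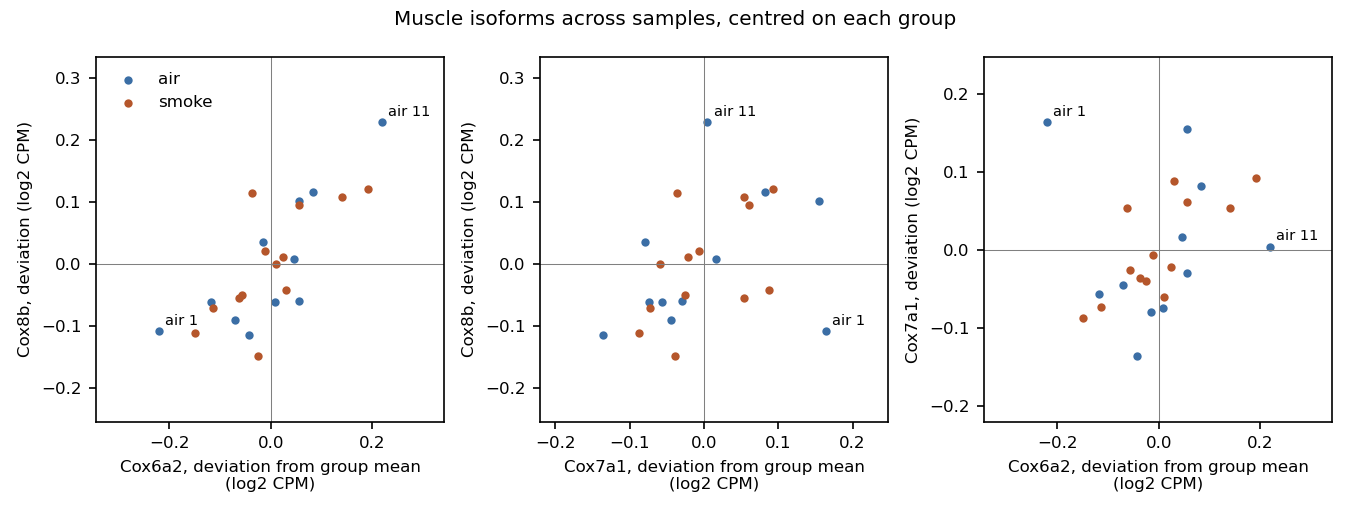
Deviation of each sample from its group mean in log2 CPM for pairs of muscle forms, 11 air (blue) and 13 smoke (orange) samples, with air replicates 1 and 11 labelled. Cox6a2 and Cox8b lie along a line (r 0.776), and air replicate 1 stands off in the panels with Cox7a1.

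The coefficient of variation of Cox7a1 was 6.86% in air and 4.32% in smoke, where its counts alone give 1.26% and 1.39%. For Cox6a2 it was 7.99% and 6.63% against 0.981% and 1.01%. For Cox6a1, the least abundant of the tested forms, it was 14.1% and 10.4% against 9.07% and 9.51%.

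The genes whose pattern over the 24 group-centred samples was most like each muscle form, among those with a mean of at least 20 CPM, are given as a description, and all share the libraries' scaling. For Cox6a2 they included Ndufa11, Fitm1, Rps15 and Ndufb9 (r 0.874 to 0.809). For Cox8b they were Uqcr11, Grina, Cox6a2, Timm13 and Ddrgk1 (r 0.801 to 0.760). For Cox7a1 values were lower, from 0.600 to 0.572, for genes that included Kyat1, Siva1, Fam57b, 2310015A10Rik, Ssu72, Tmem258, Fra10ac1, Uqcrq and Ypel3. Of 4025 genes, Cox8b ranked 19th and Cox4i1 93rd in likeness to Cox6a2, while Cox7a1 ranked 1272nd.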

How the data were processed

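Plantaris RNA was sequenced with the Lexogen QuantSeq 3′ forward kit, per the labels' protocols. The authors deposited raw read counts per Ensembl gene ID for 24 samples. STAR and the build mm9 are named in the submitters' processing notes; the counting tool, annotation, strand use and any molecular identifiers are not given in the sources used here, so reads may include PCR copies and floors cover counting error only. Symbols came from GENCODE M21, which held 47224 of 47643 IDs (99.1%); this annotation and the RefSeq promoters are of GRCm38 and carry no coordinates into the counts. In that annotation Cox4i1 lies within Gm20388 on the same strand (0 counts in all) and overlaps Emc8 on the opposite strand over 352 bases (2554 counts in all), so its count is uncertain to that extent; Cox6a2 lies within Itgad on the opposite strand (4 counts in all).

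Counts were fitted with edgeR 4.0.16 in R 4.3.3 (filterByExpr, minimum count 10, TMM, quasi-likelihood F-test, standard error from the fold change and F, all 24 samples, no covariate, Benjamini-Hochberg over 10159 genes, threshold 0.05), tested on simulated data first. Log2 CPM used a prior count of 2. Correlations used permutations within groups (100000 resamples). Alternatives were other scalings, filters, DESeq2 1.42.0, limma 3.58.1, covariates, a replicate block and leaving out each sample. The members and lists were chosen with earlier results of these data known. Genes named were the members, called or most changed genes of both complex IV lists, and the most alike genes, of which some are not reported here. Counts of 133 sample pairs within groups differed beyond sampling noise (chi-square per gene 2.55 to 19.2), so no samples were merged.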

Additional observations from a re-analysis of the deposited data

How the results depend on the processing

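The log2 fold changes of the 8 tested isoform genes stayed below 0 in all fits and moved by less than the SD of log2 CPM between samples of a group. Small ones moved by over 1.5 times: Cox6a1 to −0.020 with the blood covariate, Cox6a2 to −0.031 without air replicate 11, and Cox8a to between −0.066 and −0.013 without air replicate 1, 7, 8 or 9 or smoke replicate 2 or 9. No scaling moved the median of all genes by 0.1. Against 195 genes called, DESeq2 gave 323 (121 higher, 202 lower) and the blood covariate 56 (18 higher, 38 lower). With the blood covariate, and with no expression filter, 1 isoform gene (Cox7a1, lower) was called in place of 2 and 0 other subunits in place of 1. Among other subunits DESeq2 called 3, all lower, and voom 2, all lower. Cox4i1 was called by DESeq2 and with library totals only. Leaving out each sample in turn gave 141 to 254 genes (47 to 103 higher, 92 to 163 lower; 47 higher against 74 came without air replicate 3), 1 to 2 isoform genes and 0 to 2 other subunits, all lower, and moved the Cox6a2/Cox6a1 log2 difference between −0.0060 and 0.077. Between group medians the log2 difference of Cox8b/Cox8a was −0.22. The cause of these differences was not tested. Same replicate numbers in air and smoke give no shared animal, and deviations of same-numbered samples correlated at a mean r of −0.0059 over 11 pairs (−0.275 to 0.14), so the numbers do not pair the samples; 2 of 11 air samples correlated best with their own number. With the replicate block over 22 samples, 1 isoform gene (Cox7a1) and 0 other subunits were called, and the log2 fold change was −0.27 for Cox7a1, −0.20 for Cox8b (not called) and −0.016 for Cox8a; Cox6b1 was not called. With the 2 most distant samples removed, r was 0.654 for Cox6a2 with Cox7a1 and 0.549 for Cox7a1 with Cox8b, both then past the threshold, and the slow fibre score's r turned to −0.0465 with Cox6a2 and −0.118 with Cox8b, with neither past it. Depth limits Cox4i2.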
